A study of Mus musculus with 19 samples.

Results

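The Cyp4a family of mouse liver was followed across 4 groups of mice that differed in diet and in oral polyethylene (PE) microplastic. Its 6 measured members are Cyp4a10, Cyp4a12a, Cyp4a12b, Cyp4a14, Cyp4a31 and Cyp4a32, which were chosen by gene symbol, with the higher levels of Cyp4a10 and Cyp4a12a in CD + PE than in CD + Veh already known. They are 6 of 55836 genes counted and 6 of 13597 genes that passed the filter on low counts, and no member was lost to that filter. Because that contrast was in view when the family was taken up, the members' values of CD + PE against CD + Veh are given as a description with no test. The members' other comparisons are tested. Calls of genes outside the family are given for that contrast too. They are not independent of the choice where such genes vary with Cyp4a10, and nothing about the members is read from them. Both comparisons of an MD group with CD + Veh use the same CD + Veh libraries as that contrast, so their p-values for Cyp4a10 and Cyp4a12a are not independent of the choice. The same holds for members that vary with Cyp4a10 across libraries, as Cyp4a14 and Cyp4a31 do, and for Cyp4a12b, which shares reads with Cyp4a12a. The comparisons share libraries wherever they share a group.

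Bulk liver RNA was sequenced from wild-type male C57BL/6 mice that were 8 weeks old when obtained, in 19 libraries. CD + Veh (n = 4) received a low-fat control diet with sucrose matched to the other diet, labelled chow by the submitters, and a daily gavage of the vehicle, Tween 20 in water. CD + PE (n = 5) received that diet and 2 mg of PE per mouse per day by oral gavage for 8 weeks. MD + Veh (n = 5) and MD + PE (n = 5) received the vehicle or the same PE dose on a diet high in fat, fructose and cholesterol, which is used to model metabolic dysfunction-associated steatohepatitis. All mice, controls included, were gavaged, and the mice of a group were housed together, so cage and group cannot be told apart. Each library is taken as a separate mouse, which the labels number but do not state, so p-values measure the spread between these samples. The time of day of collection was not given in the sources used here.

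Cyp4a enzymes are cytochromes P450 of the endoplasmic reticulum that add a hydroxyl group to the terminal (omega) carbon of fatty acids such as lauric and arachidonic acid. The products are carried on to dicarboxylic acids by alcohol and aldehyde dehydrogenases and are then shortened in peroxisomes, a side route of fatty acid disposal that is used more when mitochondrial oxidation is loaded, as in fasting. Cyp4a10 and Cyp4a14 are classical targets of the fatty acid receptor Ppara, whereas Cyp4a12a is known as an androgen-dependent, male-biased arachidonate omega-hydroxylase of liver and kidney.

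The members lie in a cluster on chromosome 4 (GRCm39, GENCODE annotation), from 115156243 to 115479704. Their order is Cyp4a12a, Cyp4a12b, Cyp4a14, Cyp4a10, Cyp4a31 and Cyp4a32. Other annotated genes lie between them, such as Cyp4a30-ps, Cyp4a30b and Cyp4b1-ps1. All are protein coding and all but Cyp4a14 are on the plus strand. Cyp4a12a (ENSMUSG00000066071) spans 115156243 to 115190012, Cyp4a12b (ENSMUSG00000078597) 115268820 to 115296235, and Cyp4a14 (ENSMUSG00000028715) 115343397 to 115353344. Cyp4a10 (ENSMUSG00000066072) spans 115375461 to 115390849, Cyp4a31 (ENSMUSG00000028712) 115420818 to 115436212, and Cyp4a32 (ENSMUSG00000063929) 115458134 to 115479704. The end of Cyp4a32 overlaps the minus-strand gene Cyp4b1 (115476281 to 115504999), and Cyp4a14 lies within the plus-strand lncRNA Gm52676, which was not analysed here.

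How well the members can be told apart by their reads depends on their sequences. The stretch of 30 coding bases around the cysteine that holds the heme iron shows how close they are. It is the same in Cyp4a10, Cyp4a31 and Cyp4a32, and the same in Cyp4a12a and Cyp4a12b. Below, capitals mark bases that differ from Cyp4a10, and the stretch starts at codon 449, 448 and 447 of the respective coding sequences and crosses an exon junction.
Cyp4a10: ttctcaggaggagccaggaactgcattggg
Cyp4a12a: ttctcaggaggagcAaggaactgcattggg
Cyp4a14: ttctcaggaggaTcAaggaactgcattggg

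Away from that conserved site the members differ by more, but not by the same amount. The 60-base stretches below lie within single coding exons (GRCm39) and were taken where the 2 members of a pair differ most, with capitals at the bases that differ within the pair. For the first pair they are chr4:115183825-115183884 and chr4:115290078-115290137, both on the plus strand, with 4 differing bases.
Cyp4a12a: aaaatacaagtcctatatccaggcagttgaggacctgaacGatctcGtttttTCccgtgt
Cyp4a12b: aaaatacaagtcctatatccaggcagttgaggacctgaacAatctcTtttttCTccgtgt

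The next pair, at chr4:115375624-115375683 and chr4:115421019-115421078 on the plus strand, has 6 differing bases.
Cyp4a10: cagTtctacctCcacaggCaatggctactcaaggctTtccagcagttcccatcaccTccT
Cyp4a31: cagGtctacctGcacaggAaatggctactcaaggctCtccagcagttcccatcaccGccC

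The last pair, at chr4:115381924-115381983 on the plus strand and chr4:115349371-115349430 on the minus strand, has 28 differing bases.
Cyp4a10: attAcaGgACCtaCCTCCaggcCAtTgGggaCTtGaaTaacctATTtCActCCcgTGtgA
Cyp4a14: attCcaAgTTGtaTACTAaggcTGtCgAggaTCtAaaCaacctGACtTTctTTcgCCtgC

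Over the whole coding sequence, Cyp4a12a and Cyp4a12b were 98.5% identical, Cyp4a10 and Cyp4a32 97.1%, Cyp4a10 and Cyp4a31 96.6%, and Cyp4a10 and Cyp4a14 75.2%. Of the 31-base words in a member's transcript, 54.2% were shared with another member for Cyp4a10, 57.5% for Cyp4a12a, 62.7% for Cyp4a12b, 52.6% for Cyp4a32 and 31.8% for Cyp4a31, but 0.489% for Cyp4a14. Counts of Cyp4a14 therefore rest almost entirely on sequence of its own, while the split of reads among Cyp4a10, Cyp4a31 and Cyp4a32, and between Cyp4a12a and Cyp4a12b, is an estimate of the counting program. The levels of these near-identical members are uncertain to that extent, and results are also given with them summed.

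The libraries held 10398820 to 15456729 counts each, with 10398820 to 12757617 in the PE libraries and 13406037 to 15456729 in the vehicle libraries. The library numbers also separate PE (48 to 57) from vehicle (39 to 47), so the order of libraries cannot be told apart from PE. The pseudogene Rps6-ps4 had 1088 to 1690 counts in libraries 39 to 45 and 0 in libraries 46 to 57, a division that falls between MD + Veh 3 and MD + Veh 4. Core clock genes differed between groups, with 11 of 17 called in MD + Veh against CD + Veh. A clock score, the mean log2 CPM of genes such as Bmal1 and Clock minus that of genes such as Dbp and Per2, was -4.20 to -2.86 in CD + Veh, -2.84 to 0.54 in CD + PE, -1.92 to -0.09 in MD + Veh and -1.85 to -0.08 in MD + PE. Summed skeletal muscle markers reached 3108 CPM in MD + Veh 1 and 423 CPM in CD + PE 1, against 1.18 to 195 CPM elsewhere. Intestinal epithelium markers summed to 334 CPM in MD + PE 2, against 52.4 to 131 CPM in every other library. The library division and the clock score were each added as a covariate in fits given below. Beyond these fits, the part of library order, clock state, muscle RNA and intestinal RNA in the Cyp4a values was not tested.

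Cyp4a12a led the family in CD + Veh, CD + PE and MD + Veh, and Cyp4a10 in MD + PE. Per kilobase of transcript, CD + Veh had 82.6 ± 28.2 CPM (SD, n = 4) of Cyp4a12a, 32.9 ± 11.5 of Cyp4a12b, 19.3 ± 15.05 of Cyp4a10, 11.8 ± 13.4 of Cyp4a14, 4.58 ± 1.40 of Cyp4a32 and 1.13 ± 0.43 of Cyp4a31. In MD + PE there were 172 ± 58.0 CPM per kilobase (SD, n = 5) of Cyp4a10 and 115 ± 24.5 of Cyp4a12a. CD + Veh had the lowest group mean of all 6 members. Levels of single members below are CPM without the length correction, scaled by TMM, and are compared only within a gene. Sums, shares and ratios over members, given later, use CPM or counts without that correction, so longer transcripts weigh more in them.

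Cyp4a10, a Ppara-responsive omega-hydroxylase, was the member with the widest separation of groups. In CD + Veh the 4 libraries had 9.39, 22.2, 50.9 and 80.6 CPM, with a mean of 40.8 ± 31.7 (SD, n = 4). In CD + PE they had 94.5, 134, 156, 345 and 385 CPM, with a mean of 223 ± 132 (SD, n = 5). All CD + PE libraries were above all CD + Veh libraries. MD + Veh had 80.3, 101, 229, 258 and 291 CPM, with a mean of 192 ± 95.2 (SD, n = 5), and its lowest library fell just below the highest of CD + Veh. MD + PE had 244, 261, 329, 479 and 506 CPM, with a mean of 364 ± 122 (SD, n = 5), above every CD + Veh library and overlapping both other groups. By their means the groups ran from CD + Veh to MD + Veh, CD + PE and MD + PE, and MD + Veh and CD + PE, neighbours in this order, lay within each other's spread.

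Cyp4a14, which shares this regulation, followed the same order with much wider spread. The CD + Veh libraries had 5.57, 6.78, 28.7 and 77.5 CPM, a mean of 29.6 ± 33.6 (SD, n = 4). CD + PE had 40.3, 48.3, 56.4, 283 and 394 CPM, a mean of 164 ± 164 (SD, n = 5), so that 2 mice stood far above the other 3. These were CD + PE 3 and CD + PE 5, the mice with the highest Cyp4a10. MD + Veh had 10.9, 28.6, 71.7, 81.5 and 125 CPM, a mean of 63.6 ± 45.2 (SD, n = 5). MD + PE had 53.4, 159, 171, 232 and 235 CPM, a mean of 170 ± 73.7 (SD, n = 5). Every pair of groups overlapped, and CD + PE and MD + PE had nearly the same mean.

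**Figure D1:**
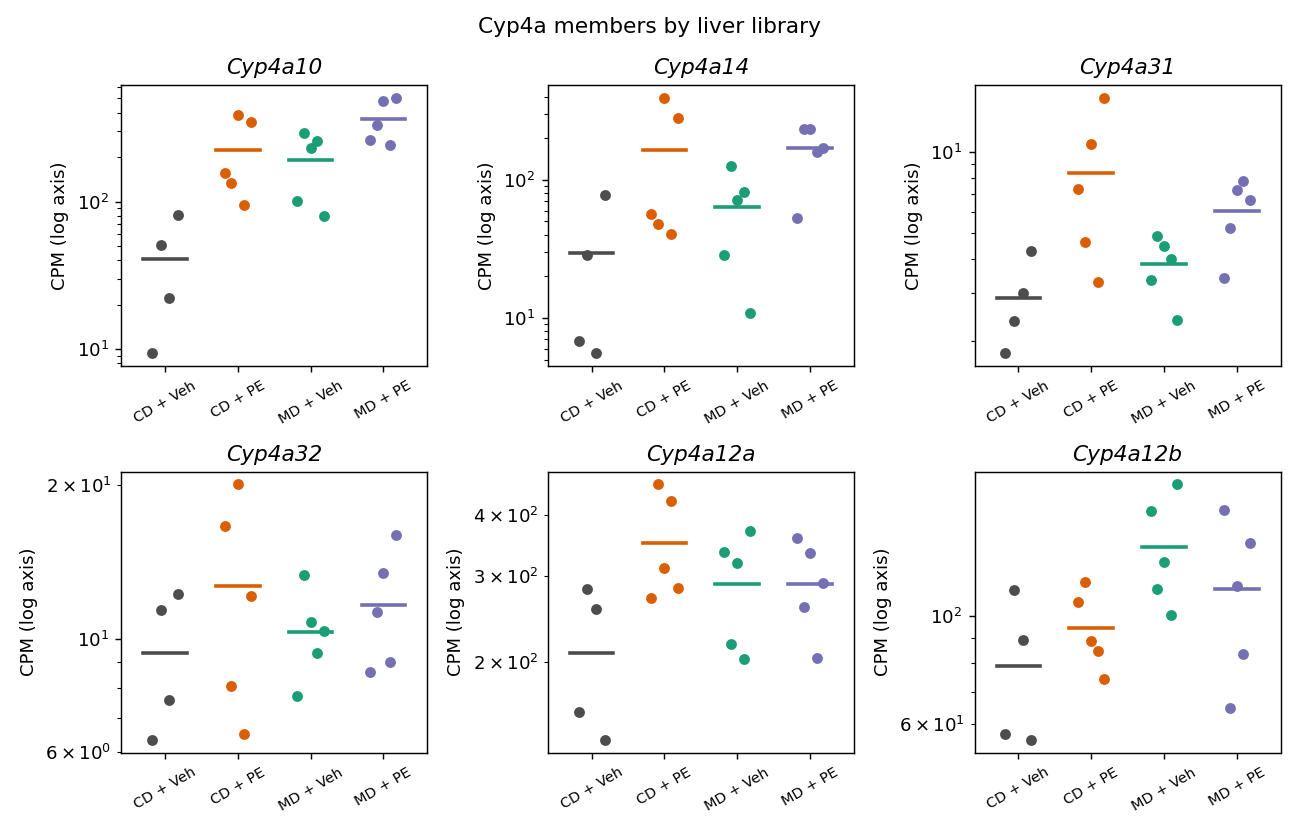
CPM of the 6 members on log axes, 1 point per liver library and a line at each group mean, for CD + Veh (n = 4), CD + PE, MD + Veh and MD + PE (n = 5 each). The 5 CD + PE libraries of Cyp4a10 sit between 94.5 and 385 CPM, all above the CD + Veh libraries, which reach 80.6 CPM.

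Cyp4a31 and Cyp4a32, close relatives of Cyp4a10, were low. Cyp4a31 had 1.80, 2.36, 3.02 and 4.31 CPM in CD + Veh, from 29 to 64 counts, and 3.31, 4.65, 7.31, 10.7 and 15.8 CPM in CD + PE. It had 2.39, 3.36, 4.02, 4.50 and 4.89 CPM in MD + Veh and 3.41, 5.22, 6.64, 7.22 and 7.76 CPM in MD + PE. Its highest libraries were again CD + PE 3 and CD + PE 5. Cyp4a32 ranged from 6.34 to 12.3 CPM in CD + Veh, 6.53 to 20.04 in CD + PE, 7.73 to 13.3 in MD + Veh and 8.61 to 16.0 in MD + PE, with means between 9.39 and 12.7 CPM that differed by less than the spread within groups.

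Cyp4a12a, the androgen-dependent member, was high in all livers. It had 138, 158, 257 and 281 CPM in CD + Veh, a mean of 208 ± 71.2 (SD, n = 4), and 270, 284, 311, 428 and 463 CPM in CD + PE, a mean of 351 ± 88.4 (SD, n = 5). MD + Veh had 203, 217, 319, 336 and 372 CPM and MD + PE 204, 259, 290, 335 and 359 CPM, with means of 289 ± 75.0 and 289 ± 61.8 (SD, n = 5 each). The group with the highest mean was thus CD + PE, and the MD groups could not be separated. Its near-copy Cyp4a12b had 55.8, 57.3, 89.4 and 113 CPM in CD + Veh, a mean of 78.8 ± 27.4 (SD, n = 4), and 100, 113, 129, 164 and 185 CPM in MD + Veh, a mean of 138 ± 35.4 (SD, n = 5). It ranged from 74.3 to 117 CPM in CD + PE and from 64.9 to 164 CPM in MD + PE. Here the highest mean was in MD + Veh, not in CD + PE.

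The first comparison asked what PE does on the control diet. In CD + PE against CD + Veh all 6 members had a positive log2 fold change, which was 2.47 (SE 0.861) for Cyp4a14, 2.45 (SE 0.562) for Cyp4a10, 1.54 (SE 0.384) for Cyp4a31, 0.75 (SE 0.240) for Cyp4a12a, 0.44 (SE 0.287) for Cyp4a32 and 0.26 (SE 0.259) for Cyp4a12b. For Cyp4a10 this is a 5.47-fold difference. Their median was 1.14, beside 0.01 over all genes tested. In this comparison 1.22% of genes tested were called higher and 1.70% lower, and nothing is read from the members' values against these shares, since the values were known when the family was chosen. Cyp4a10, Cyp4a14 and Cyp4a31 formed the upper 3 and the other 3 stayed below 1 on the log2 scale. CD + Veh 4 had the highest Cyp4a10, Cyp4a14 and Cyp4a31 of its group. Without it the log2 fold change was 3.03 for Cyp4a10 and 3.61 for Cyp4a14.

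On the MASH-type diet the effect of PE can be tested, since MD + PE and MD + Veh share no library with the contrast above. Here 0 of 6 members passed, beside 0.147% of genes tested called higher and 0.934% called lower by edgeR's quasi-likelihood test. At an unadjusted p under 0.05 the count in this fit over 19 libraries was also 0, and DESeq2 called 0. The log2 fold change was 1.42 (SE 0.758) for Cyp4a14, 0.92 (SE 0.489) for Cyp4a10 and 0.65 (SE 0.350) for Cyp4a31, with adjusted p-values of 0.386, 0.3796 and 0.386 from edgeR with Benjamini-Hochberg adjustment. It was 0.17 (SE 0.268) for Cyp4a32, 0.00 (SE 0.223) for Cyp4a12a and -0.28 (SE 0.242) for Cyp4a12b. Exact two-sided permutation tests on log2 CPM gave p = 0.0476 for Cyp4a10 and p = 0.0556 for Cyp4a14 and Cyp4a31, and the smallest p this design allows is 0.00794. Adjusted over the 6 members these exact p-values were 0.111. With only the groups compared, the SE came from these libraries alone. The log2 fold change was then 0.94 (SE 0.342) for Cyp4a10, 1.44 (SE 0.531) for Cyp4a14 and 0.67 (SE 0.244) for Cyp4a31. Adjusted p-values were 0.231 to 0.238 by edgeR. The higher group means of the Cyp4a10-like members in MD + PE thus did not pass after adjustment over all genes.

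The PE by diet interaction, the PE difference on MD minus that on CD, was -1.53 (SE 0.721) for Cyp4a10, -1.06 (SE 1.101) for Cyp4a14, -0.88 (SE 0.514) for Cyp4a31, -0.75 (SE 0.326) for Cyp4a12a, -0.54 (SE 0.354) for Cyp4a12b and -0.26 (SE 0.392) for Cyp4a32 on the log2 scale. It holds the contrast in which the family was chosen, so it was not tested. All 6 values were negative.

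Diet without PE was compared next, in MD + Veh against CD + Veh, whose reference libraries are those with Cyp4a10 already known to be low. Cyp4a10 rose by 2.24 on the log2 scale (SE 0.557, adjusted p = 0.0108 by edgeR), a 4.71-fold difference, and so did Cyp4a12b, by 0.81 (SE 0.260, adjusted p = 0.0437 by edgeR), a 1.75-fold difference. These 2 of 6 members called higher, and 0 called lower, stand beside 4.74% of genes tested called higher and 5.63% called lower. The values were 1.105 (SE 0.824) for Cyp4a14, 0.47 (SE 0.238) for Cyp4a12a, 0.42 (SE 0.383) for Cyp4a31 and 0.14 (SE 0.285) for Cyp4a32, with adjusted p-values of 0.199 to 0.796 by edgeR. The call of Cyp4a10 was kept without each of the 19 libraries in turn (adjusted p of 0.00603 to 0.0417 by edgeR). It ended with the clock score as a covariate, where Cyp4a10 stood at 2.87 on the log2 scale (SE 0.902, adjusted p = 0.0932 by edgeR). The clock scores of CD + Veh (-4.20 to -2.86) and MD + Veh (-1.92 to -0.09) did not overlap. This covariate is thus hard to separate from the groups, and a call lost with it, here or below, need not mean a smaller difference.

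The call of Cyp4a12b was fragile. It ended when CD + Veh 1, 3 or 4, CD + PE 3, MD + Veh 1, 3 or 5, or MD + PE 3 was left out. Over all 19 left-out fits its log2 fold change was 0.69 to 1.03. With reads of Cyp4a12a and Cyp4a12b summed, the difference was 0.57 (SE 0.234, adjusted p = 0.111 by edgeR). Reads of Cyp4a10, Cyp4a31 and Cyp4a32 summed gave 1.96 (SE 0.501, adjusted p = 0.0128 by edgeR). By library number, Cyp4a10 was 101, 229 and 291 CPM in the MD + Veh libraries up to 45. It was 258 CPM in library 46 and 80.3 CPM in library 47, the latter below the highest CD + Veh library at 80.6 CPM. With the library division as a covariate, Cyp4a10 was at 2.35 on the log2 scale (SE 0.611, adjusted p = 0.0147 by edgeR). Beyond that fit, the part of the library division in this difference was not tested.

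**Figure D2:**
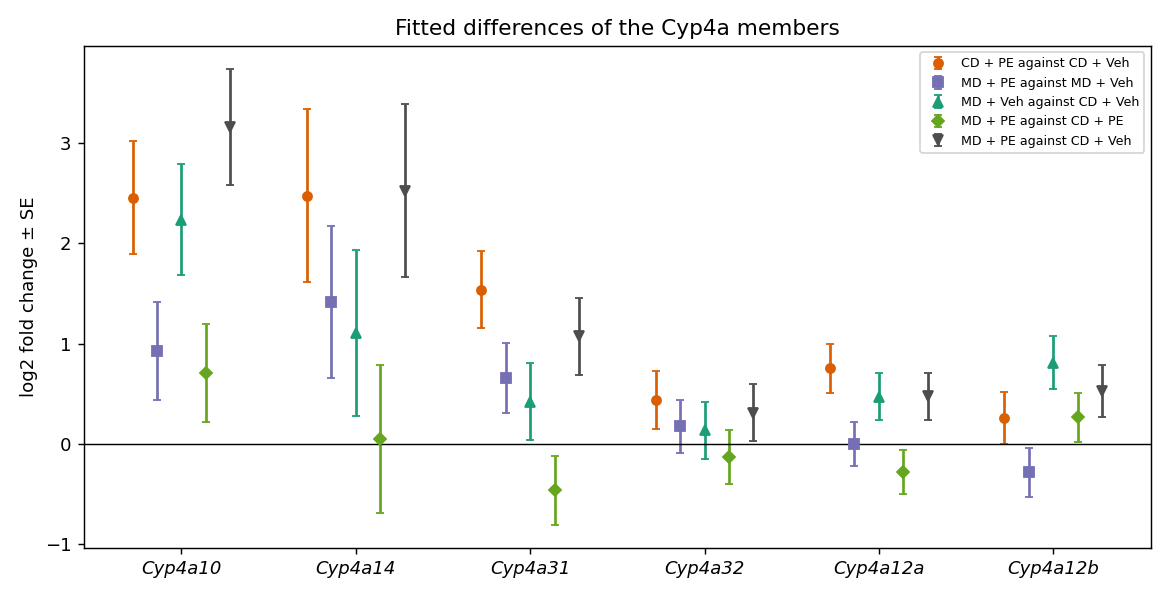
Log2 fold change with its SE for each member in 5 comparisons, fitted in 1 edgeR model over 19 libraries; comparisons that share a group share its libraries. Cyp4a10 lies at 2.45 in CD + PE against CD + Veh, 2.24 in MD + Veh against CD + Veh and 3.16 in MD + PE against CD + Veh, while all 6 members lie between -0.46 and 0.71 in MD + PE against CD + PE.

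Diet under PE, MD + PE against CD + PE, gave 0 of 6 members called by edgeR, 0 at an unadjusted p under 0.05 and 0 by DESeq2, beside 1.69% of genes called higher and 2.92% lower. Log2 fold changes were 0.71 (SE 0.487) for Cyp4a10, 0.27 (SE 0.243) for Cyp4a12b, 0.05 (SE 0.741) for Cyp4a14, -0.13 (SE 0.269) for Cyp4a32, -0.28 (SE 0.223) for Cyp4a12a and -0.46 (SE 0.344) for Cyp4a31, and adjusted p-values ran from 0.429 to 0.982.

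Against CD + Veh, MD + PE combined both exposures, and the reference is again the group whose low Cyp4a10 was known when the family was chosen. Cyp4a10 rose by 3.16 on the log2 scale (SE 0.580, adjusted p = 0.000664 by edgeR), an 8.93-fold difference, and the groups did not overlap, which draws on the same values. Cyp4a14 rose by 2.52 (SE 0.862, adjusted p = 0.0449 by edgeR), a 5.74-fold difference. Cyp4a14 and Cyp4a31 vary with Cyp4a10 across libraries, so their p-values here are not independent of the choice either. The 2 of 6 members called higher, with 0 lower, stand beside 6.02% of genes tested called higher and 8.55% called lower. Cyp4a31 was at 1.07 (SE 0.382, adjusted p = 0.0534 by edgeR), just short of the threshold, and it was called by DESeq2 (adjusted p of 0.0272), with a filter at a mean of 5 CPM (0.0387) and with only the groups compared (0.0215). Cyp4a12b, Cyp4a12a and Cyp4a32 were at 0.53, 0.47 and 0.31. Leaving out single libraries kept Cyp4a10 called each time (adjusted p of 0.000533 to 0.00394 by edgeR), whereas Cyp4a14 lost its call in 9 of 19 such fits, those without CD + Veh 1, 2 or 3, MD + Veh 3 or 4, or MD + PE 2, 3, 4 or 5, with values of 2.18 to 3.67 over all fits.

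Summed over the 6 members, the family stood at 239 to 488 CPM in CD + Veh (mean 370 ± 102, SD, n = 4), 612 to 1209 in CD + PE (854 ± 252, n = 5), 640 to 765 in MD + Veh (697 ± 61.8, n = 5) and 707 to 1185 in MD + PE (954 ± 199, n = 5). No library of the other groups fell to the highest CD + Veh library, and the rule of choice fixes part of that pattern. MD + Veh had the smallest SD of these sums. Within it the make-up still varied widely, since Cyp4a10 and Cyp4a14 together gave 13.8% of Cyp4a counts in MD + Veh 5 and 54.4% in MD + Veh 2. That share was 6.75% to 42.9% in CD + Veh, 20.5% to 64.4% in CD + PE and 37.0% to 62.2% in MD + PE, where 4 of 5 mice were above every MD + Veh library.

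**Figure D3:**
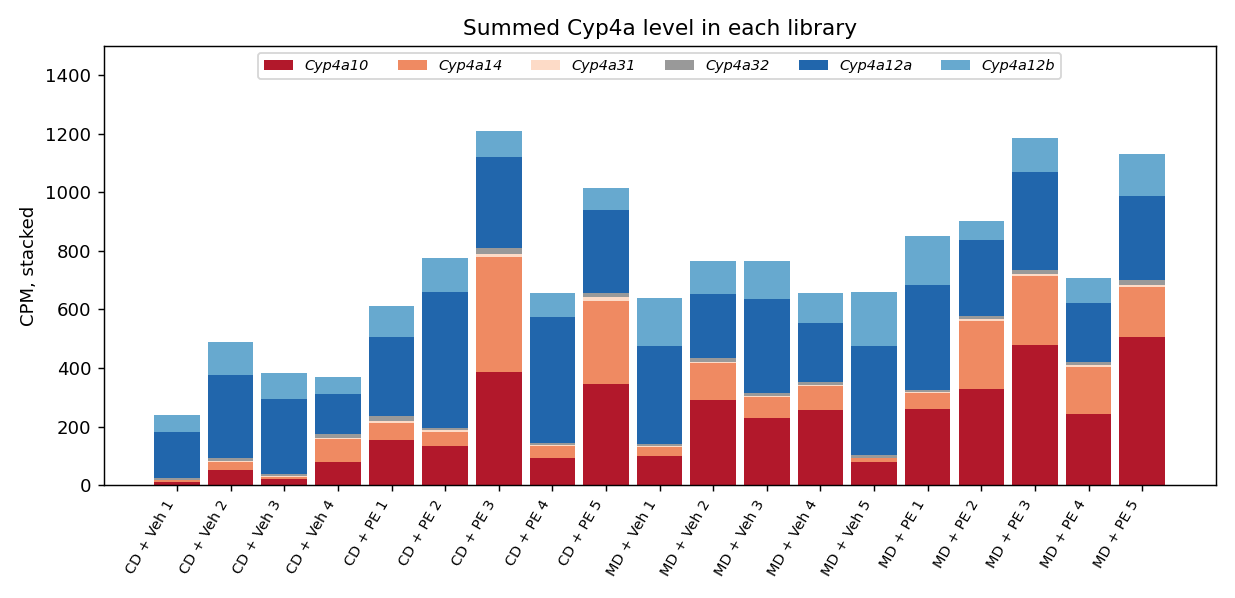
Stacked CPM of the 6 members in each of the 19 libraries, ordered by group and replicate number. The sum is lowest in CD + Veh 1 at 239 CPM and highest in CD + PE 3 at 1209 CPM, and the MD + Veh sums of 640 to 765 CPM are made up of very different shares of Cyp4a10 and Cyp4a14.

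Across mice the members fell into 2 sets. Over the 19 libraries, which share groups and depth, log2 CPM of Cyp4a10 and Cyp4a14 had a Pearson r of 0.898 (Spearman rho 0.900), and r was 0.900 after group means were removed. These 2 members share no 31-base word. Cyp4a14 and Cyp4a31 had r = 0.847 (rho 0.881), and Cyp4a10 and Cyp4a31 r = 0.750 (rho 0.805). Cyp4a32 had r of 0.620 with Cyp4a10 (rho 0.630) and 0.666 with Cyp4a14 (rho 0.712). The other set was Cyp4a12a and Cyp4a12b, with r = 0.644 (rho 0.661) and 0.762 within groups, a pair that does share reads. Between the sets the values were low or negative. Cyp4a12a had r = 0.279 with Cyp4a10 (rho 0.121) and 0.026 with Cyp4a14 (rho -0.126), and within groups these were -0.310 and -0.535. These are descriptions over 19 libraries, with no test.

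**Figure D4:**
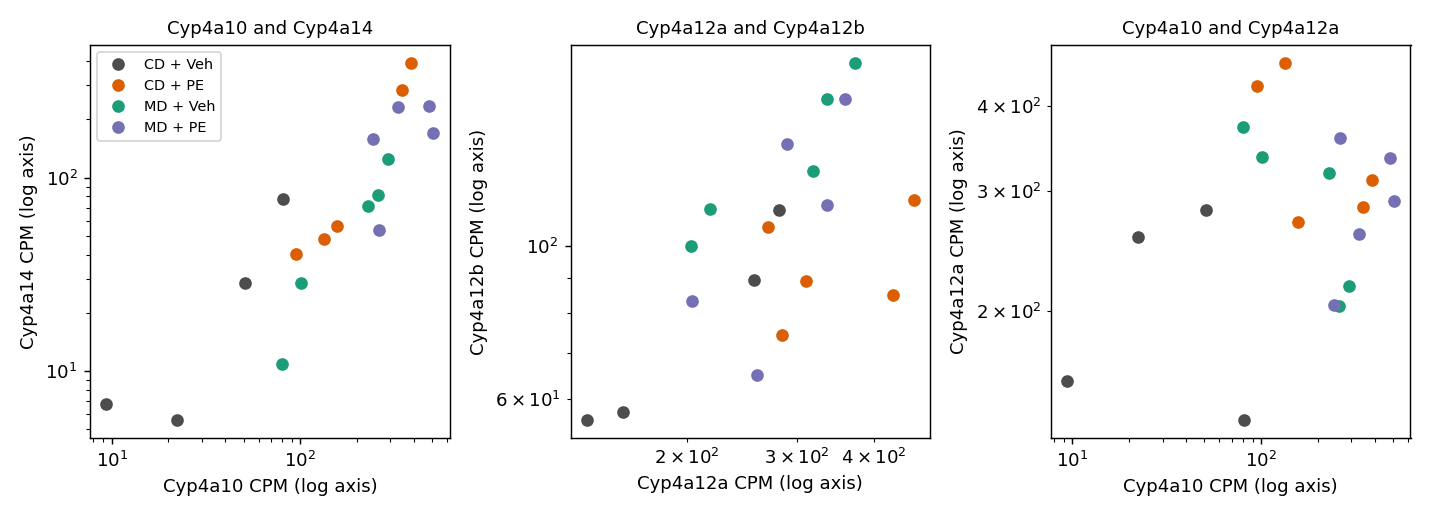
CPM of pairs of members on log axes, 1 point per library, with colours for the 4 groups. Cyp4a10 and Cyp4a14 vary together (r = 0.898 on log2 CPM, n = 19), as do Cyp4a12a and Cyp4a12b (r = 0.644), while Cyp4a10 and Cyp4a12a show little relation (r = 0.279).

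The balance within each set was also compared. In MD + Veh there were 0.405 to 0.521 counts of Cyp4a12b per count of Cyp4a12a, all above the 0.348 to 0.404 of CD + Veh, the lowest of them by a very small margin. The ratio was 1.27-fold higher, with an exact two-sided permutation p of 0.0159, or 0.0952 adjusted over the 6 ratio comparisons made, a set picked after the values had been seen. It was 0.198 to 0.395 in CD + PE and 0.251 to 0.486 in MD + PE, and the exact permutation p was 0.0714 for MD + PE against MD + Veh and 0.0873 for MD + PE against CD + PE. Counts of Cyp4a14 per count of Cyp4a10 ran from 0.251 to 0.961 in CD + Veh, 0.361 to 1.02 in CD + PE, 0.136 to 0.430 in MD + Veh and 0.205 to 0.705 in MD + PE. No difference in this ratio passed, with exact permutation p-values of 0.0794 to 0.492. Cyp4a12a and Cyp4a12b share reads, so their ratio carries the uncertainty of how the reads were divided.

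**Figure D5:**
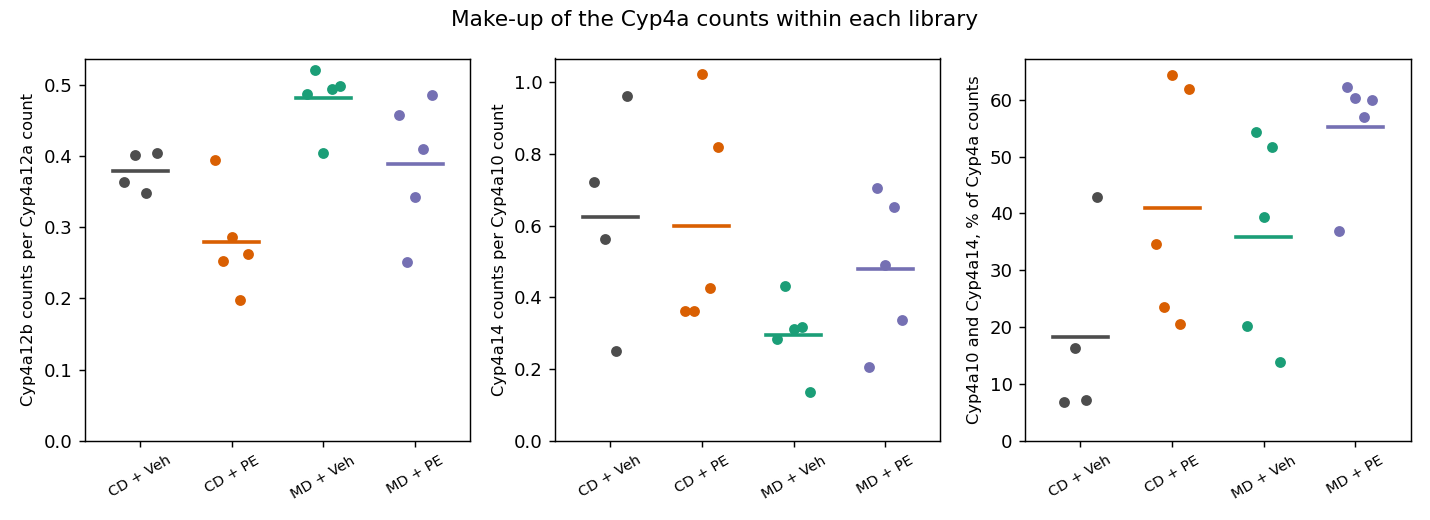
Make-up of the Cyp4a counts in each library, 1 point per library, with lines at group means: counts of Cyp4a12b per count of Cyp4a12a, counts of Cyp4a14 per count of Cyp4a10, and the percent of Cyp4a counts from Cyp4a10 and Cyp4a14. The 5 MD + Veh libraries have 0.405 to 0.521 counts of Cyp4a12b per count of Cyp4a12a, above the 4 CD + Veh libraries at 0.348 to 0.404.

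The receptor itself had its lowest mean in CD + Veh and its highest in MD + PE. Ppara had 74.0 ± 10.4 CPM in CD + Veh (SD, n = 4) and 82.5 ± 15.3 in CD + PE, while MD + Veh had 88.3 ± 16.6 and MD + PE 90.6 ± 10.8 (SD, n = 5 each). Ppara was not called in any comparison, which does not show that its level was unchanged. The paper reports Ppara as higher with PE on either diet than in CD + Veh, marked by adjusted p-values from DESeq2. A call here also needed a log2 fold change of 0.38 or more in size. By DESeq2 here, 0 of 16 genes in the list that holds Ppara were called in CD + PE against CD + Veh. The reason for the difference from the paper was not tested. Of 16 genes for Ppara, its partners and coregulators, 1 rose and 1 fell in MD + Veh against CD + Veh. These were Pparg, the adipogenic relative of Ppara, at 0.91 (SE 0.271, adjusted p = 0.0316 by edgeR), and Lpin1, a phosphatidate phosphatase and coactivator, at -1.87 (SE 0.602, adjusted p = 0.0442 by edgeR). Both calls were lost with the clock score as a covariate, that of Pparg also without CD + Veh 1 or 3 or MD + Veh 2 or 3, and that of Lpin1 in 11 of 19 fits that left out a library, those without any CD + Veh library, CD + PE 4, MD + Veh 1, 2, 3 or 4, or MD + PE 3 or 4.

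Other known targets of Ppara moved with diet. Of 24 tested, 11 rose and 0 fell in MD + Veh against CD + Veh, with a median log2 fold change of 0.54 beside 0.00 over all genes. Among them were Cd36, a fatty acid uptake protein, at 2.28 (SE 0.355), Mgll, a monoacylglycerol lipase, at 0.80 (SE 0.130), Cpt2, which passes acyl chains on inside mitochondria, at 0.59 (SE 0.0995), and Slc25a20, the carnitine carrier, at 0.68 (SE 0.122). Left-out libraries and other settings put this count at 6 to 12, lowest without CD + Veh 3, and Cd36 lost its call with the clock score as a covariate. In MD + PE against CD + Veh 10 rose and 1 fell, the latter being Fabp1, the liver fatty acid binding protein, at -0.45 (SE 0.126, adjusted p = 0.0166 by edgeR), named after its value was seen. With the division of library numbers as a covariate 5 were higher. In CD + PE against CD + Veh 4 were higher and 0 lower, among them Slc25a20, Cpt2 and Acadm, a mitochondrial acyl-CoA dehydrogenase. That count was 0 with the same covariate. Only MD + Veh has libraries on both sides of the division, so this covariate is fitted from that group alone. In CD + PE against CD + Veh it took Cyp4a10 from 2.45 (SE 0.562) to 2.74 (SE 0.936) on the log2 scale. A call lost with it, here or below, need not mean a smaller difference. For MD + PE against MD + Veh the count was 0 of 24 by edgeR (6 at an unadjusted p under 0.05), and DESeq2 called 1. MD + PE against CD + PE called 3 higher and 1 lower.

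Peroxisomal fatty acid oxidation, the later steps of the omega route, showed a like picture. In MD + Veh against CD + Veh 8 of 21 genes rose and 0 fell, with a median of 0.30, including Acaa1b, a peroxisomal thiolase, at 1.56 (SE 0.171), Crot, the carnitine octanoyltransferase, at 0.99 (SE 0.146), and Hsd17b4, a multifunctional enzyme of the pathway, at 0.62 (SE 0.094). With the clock score as a covariate the count was 4, without Crot. The numbers were 9 higher and 2 lower in MD + PE against CD + Veh, 3 and 1 in MD + PE against CD + PE, and 1 and 0 in CD + PE against CD + Veh, the 1 being Crot. With the library division as a covariate the 9 became 3. For PE on the MD, 0 of 21 were called by edgeR, with 3 at an unadjusted p under 0.05, and DESeq2 called 1 lower.

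The partners that serve omega-oxidation split in direction. Of 11 tested, 3 rose and 1 fell in MD + Veh against CD + Veh. Aldh3a2, the fatty aldehyde dehydrogenase, was at 1.76 (SE 0.178), Aldh1a1 at 1.15 (SE 0.182) and Cyb5a, an electron donor to P450 enzymes, at 0.63 (SE 0.122), while Cyb5r3, the reductase of cytochrome b5, fell by 0.75 (SE 0.083). In MD + PE against MD + Veh Cyb5r3 fell by 0.59 (SE 0.079, adjusted p = 0.000887 by edgeR) and Cyb5b by 0.43 (SE 0.0775, adjusted p = 0.00816 by edgeR), and 0 rose, while the library division as a covariate ended the call of Cyb5b. In CD + PE against CD + Veh Aldh3a2, Aldh1a1 and Cyb5a were higher and Cyb5r3 lower, while the library division as a covariate left 0 higher. MD + PE against CD + PE gave 1 higher (Aldh3a2) and 1 lower (Cyb5r3), and MD + PE against CD + Veh 3 higher and 4 lower.

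Among the other Cyp4 genes, of 7 tested, 2 rose in MD + Veh against CD + Veh, Cyp4f17 at 0.97 (SE 0.159) and Cyp4f15 at 0.42 (SE 0.132), and the count was 1 with the replicate block, which lost Cyp4f15, and 3 by DESeq2. The call of Cyp4f15 was also lost in 7 of 19 fits that left out a library, those without CD + Veh 1, 3 or 4 or MD + Veh 2, 3, 4 or 5. In CD + PE against CD + Veh 0 were called by edgeR (1 at an unadjusted p under 0.05, and 1 by DESeq2), as in MD + PE against MD + Veh (1 at an unadjusted p under 0.05, and 0 by DESeq2). In MD + PE against CD + PE edgeR called 0, with 6 at an unadjusted p under 0.05, and DESeq2 called 2. In MD + PE against CD + Veh the same pair rose, and Cyp4f14, an omega-hydroxylase of leukotriene B, fell by 0.40 (SE 0.092). With the library division as a covariate 0 were higher there. The arachidonate epoxygenases compete for a shared substrate with Cyp4a12a. Epoxide hydrolases, which act on epoxides instead, were counted with them. Of 13 tested, 5 rose and 0 fell in MD + Veh against CD + Veh, led by Ephx1, the microsomal epoxide hydrolase, at 1.38 (SE 0.090) and Cyp2c29 at 1.06 (SE 0.219), of which Cyp2c29 lost its call with the clock score as a covariate. The counts were 1 higher (Ephx1) and 1 lower (Cyp2j6) in CD + PE against CD + Veh, 3 and 0 in MD + PE against CD + PE, 5 and 1 in MD + PE against CD + Veh (1 higher with the library division as a covariate) and 0 in MD + PE against MD + Veh, where 4 had an unadjusted p under 0.05 and DESeq2 called 0.

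Sex-biased genes were looked at because Cyp4a12a is male-biased. Of 12 male-biased liver genes tested, Elovl3, a fatty acid elongase, was the 1 that rose in MD + Veh against CD + Veh (1.78, SE 0.312, adjusted p = 0.000762 by edgeR), and it was also the 1 called in MD + PE against CD + Veh and in CD + PE against CD + Veh. All 3 of these calls were lost with the clock score as a covariate, the latter 2 also with the library division, and that in CD + PE against CD + Veh also with only the groups compared or without CD + Veh 1 or 4 or CD + PE 2. The summed level of the list overlapped between all groups, at 13784 to 35588 CPM in CD + Veh and 16925 to 48603 in MD + Veh. Of 3 female-biased genes tested, Cyp17a1, a steroid hydroxylase, fell by 2.25 (SE 0.388, adjusted p = 0.000658 by edgeR) in MD + Veh against CD + Veh and was lower in both comparisons of MD + PE with a CD group. The first of these calls was lost with the clock score as a covariate.

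The tissue was checked against its markers. Hepatocyte markers summed to 75807 to 91915 CPM in CD + Veh, 69422 to 96549 in CD + PE, 53786 to 68616 in MD + Veh and 51298 to 68382 in MD + PE, so the MD livers held a lower share. Fewer hepatocytes and less of this RNA per hepatocyte cannot be told apart in bulk tissue. Of 7 such genes 3 fell in MD + Veh against CD + Veh, including Alb at -0.48 (SE 0.146), the opposite direction to Cyp4a10, a call of Alb that was lost with either covariate and without CD + Veh 1, 3 or 4 or MD + Veh 1 or 5. Pericentral hepatocyte markers had 3 of 9 higher, with Oat at 1.505 (SE 0.196), and periportal markers 3 of 9 lower, with Gls2 at -0.56 (SE 0.117), a call lost with the clock score as a covariate. Periportal Ass1 and Gls2 also fell in MD + PE against MD + Veh, by 0.95 (SE 0.122) and 0.79 (SE 0.112). The part of zonation in the Cyp4a values was not tested. Kidney tubule markers, of interest because kidney is the other main site of these enzymes, summed to at most 0.894 CPM in any library, with none of the 10 genes passing the filter. Adipocyte markers summed to 11.7 to 24.7 CPM in CD + Veh and 98.2 to 252 CPM in MD + Veh, and 2 of 3 tested rose, mainly Cfd at 7.56 (SE 0.578), with 1 left when the clock score was a covariate. Intestinal epithelium markers had 1 of 2 called, Fabp2 at 1.08 (SE 0.119). The library highest in them was MD + PE 2. The call of Cyp4a14 in MD + PE against CD + Veh was lost in 9 of 19 left-out fits, those without MD + PE 2, 3, 4 or 5 among them. All 9 skeletal muscle markers tested were called higher in MD + Veh, the group that holds the 3108 CPM library, against CD + Veh. The count was 8 by DESeq2 and 0 with the clock score as a covariate. In MD + PE against MD + Veh 5 were lower (0 to 9 over the alternatives). The call of Cyp4a10 in MD + Veh against CD + Veh was kept without the 3108 CPM library, as without each of the 19 libraries in turn.

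Not all genes of the locus followed the family. The file lists 11 symbols that begin with Cyp4a. Cyp4a29, Cyp4a29-ps1, Cyp4a30-ps and Cyp4a30b were at 0 counts in every library and Cyp4a28-ps had 1 count in all. Cyp4b1, whose end overlaps that of Cyp4a32 on the other strand, had 9.17 ± 1.02 CPM in CD + Veh (SD, n = 4) and 10.4 ± 1.52 in MD + PE (SD, n = 5) and was not called in any comparison. Upstream of the cluster, Pdzk1ip1, which encodes a small membrane protein, went the other way, from 21.9 ± 11.9 CPM in CD + Veh (SD, n = 4) to 1.21 ± 0.323 in MD + Veh (SD, n = 5), which is -4.16 on the log2 scale (SE 0.367, adjusted p = 6.33e-07 by edgeR). Downstream, Efcab14 was called in MD + PE against CD + Veh (0.42, SE 0.141, adjusted p = 0.0409 by edgeR) and in no other comparison, and Atpaf1 in none.

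Likeness was measured over 9387 genes averaging 5 CPM or more. The 5 most like Cyp4a10 in log2 CPM over the 19 libraries were Acot1 (Pearson r = 0.934, Spearman rho 0.944), Slc25a20 (0.931 and 0.889), Creg1 (0.925 and 0.909), Mpc1 (0.920 and 0.858) and Aldh1a1 (0.918 and 0.804). Acot1 is a cytosolic acyl-CoA thioesterase and Mpc1 a subunit of the mitochondrial pyruvate carrier. With group means removed their r ranged from 0.735 to 0.889. Acot1 stood at 9.05 ± 4.69 CPM in CD + Veh (SD, n = 4) and 19.5 ± 10.2 in CD + PE, while MD + Veh had 23.7 ± 4.50 and MD + PE 32.9 ± 9.58 (SD, n = 5 each). It rose in MD + Veh against CD + Veh by 1.39 (SE 0.349, adjusted p = 0.0114 by edgeR). Acot1 is named for varying with Cyp4a10 over libraries that include CD + Veh, so this p-value is not independent of the choice. The 5 most like Cyp4a12a were Gm3734 (r = 0.802, rho 0.675), Rtp3 (0.800 and 0.695), Tubgcp3 (0.773 and 0.661), Ecd (0.765 and 0.719) and Irf9 (0.763 and 0.737). No gene appears in both sets of 5.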

How the data were processed

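Bulk liver RNA-seq of 19 mice was used, with groups taken from the sample titles. Poly(A) RNA was made into libraries with NEBNext and IDT xGen kits. The authors trimmed reads with fastp 0.23.4, quantified them with Salmon 1.10.3 against a GENCODE GRCm39 transcriptome (release not given in the sources used here) with the library type detected automatically, and brought to gene level with tximport. Values in the deposited table are estimated counts that the authors gave as whole numbers for each gene, unnormalized. Columns of no known sample numbered 0. Salmon divides reads that match several near-identical transcripts by estimation, so values of close paralogs depend on that step.

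The analysis used edgeR 4.0.16 (R 4.3.3), with TMM scaling, filterByExpr by group, 1 coefficient per group over all 19 libraries, and the quasi-likelihood F test. A call needed both an adjusted p (Benjamini-Hochberg) under 0.05 and a log2 fold change of 0.38 or more in size. SE is the log2 fold change divided by the square root of F. Log2 CPM used a prior count of 2. Exact permutation tests are two-sided over libraries. Depth was 10398820 to 15456729 counts per library. Sequences and positions came from GENCODE vM39 (GRCm39), with the transcript of typical coding length for each member. Genes named besides the members are other Cyp4a symbols, up to 4 called genes of a list with the smallest p in the comparison described (with the most abundant gene of a cell type list), Ppara, genes beside the cluster and the 5 most like Cyp4a10 or Cyp4a12a. Cyp4a members and gene lists were chosen with earlier results of these data known. The scripts were tested on simulated data. Replicate numbers were not treated as pairing the mice. Over 27 same-numbered pairs the median correlation of deviations was 0.0293 (-0.245 to 0.410, 6 above 0.1). Pairs of unlike number were not measured, so these values cannot decide whether the numbers pair mice. Over 36 pairs of libraries of a group none were copies. Alternatives were RLE scaling, DESeq2 1.42.0, other filters, robust dispersion, only the groups compared, a replicate block, left-out libraries, summed paralogs and, added after the data were seen, the library division and clock score as covariates. Some genes that this rule would name are not reported here.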

Additional observations from a re-analysis of the deposited data

How the results depend on the processing

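The counts of 0 of 6 members in MD + PE against MD + Veh and in MD + PE against CD + PE were 0 under every alternative, leave-one-out fits included (0 to 0). The 2 members called in MD + Veh against CD + Veh became 1 (Cyp4a10) with robust dispersion, with the replicate block, with the library division as a covariate and with near-identical members summed (1 of 3 features), and 0 with the clock score as a covariate. Leaving out 1 library gave 1 to 2. The 2 called in MD + PE against CD + Veh became 1 (Cyp4a10) with robust dispersion, the library division or the clock score, and 1 to 3 without 1 library. It was 3, with Cyp4a31, under a filter at a mean of 5 CPM, with only the groups compared and by DESeq2. The replicate block left that count at 2 (Cyp4a10 and Cyp4a14) and among the members changed no call but that of Cyp4a12b (0.74, adjusted p = 0.0643 by edgeR). In MD + PE against CD + Veh Cyp4a14 had a log2 fold change of 3.22 (adjusted p = 0.189) with the division and 3.58 (adjusted p = 0.115) with the clock score, both by edgeR. The median log2 fold change in CD + PE against CD + Veh, 1.14, was 2.20 over 3 summed features and 1.00 to 1.22 without 1 library. The cause of these shifts was not tested. No called value changed sign. Cyp4a31, from 29 to 160 counts per library, is the member most limited by depth.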
